A study of Homo sapiens with 6 samples.

Results

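Polyamines are small positively charged molecules that bind RNA and DNA and are needed for growth. The 10 genes described here make, break down and regulate them: SRM, SMS, ODC1, AMD1, SAT1, SMOX, MTAP, OAZ1, OAZ2 and AZIN1. They were read by 22 probe sets, every one on the array whose annotation gives a single gene symbol that is 1 of these 10, out of 22215 probe sets in all covering 11963 singly annotated genes. The cells were HCT116, an established human colon cancer line, in which a lentiviral vector (FUGW) stably expressed 1 of 2 hairpins. The NFX1-91 shRNA group carried a hairpin against NFX1-91, a splice form of the zinc finger protein NFX1, and the control group a hairpin against β-galactosidase. Both groups therefore carried a hairpin and the vector, each group had 3 arrays, and the labels do not say whether a group was 1 clone or whether its arrays came from separate cultures. Every p-value therefore rests on the variation from array to array, whether biological or technical, and the small number of arrays limits the precision.

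SRM, the spermidine synthase, was one of the largest falls of the whole comparison, and the pathway was chosen from that fall. Its values are therefore given as a description with no test. The other members come from the same comparison. Their adjusted p-values are those of the fit across all 22215 probe sets, and the number of them called says nothing about the pathway as a whole.

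In the pathway, ornithine decarboxylase (ODC1) turns ornithine into putrescine, and S-adenosylmethionine decarboxylase (AMD1) makes the donor of the aminopropyl group. Spermidine synthase (SRM) and spermine synthase (SMS) add that group in turn and release methylthioadenosine, and MTAP begins its salvage to methionine. SAT1 acetylates spermidine and spermine for export or oxidation, and SMOX oxidises spermine directly. Antizymes (OAZ1, OAZ2) bind ODC1 and send it to the proteasome, and the antizyme inhibitor AZIN1 takes antizyme away from ODC1. Colon cancers are known for high ODC1 activity, and SRM and ODC1 are textbook targets of MYC, a factor that binds the E-box.

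The upstream region of SRM is shown because SRM changed most and its sequence holds that E-box. The 250 bases before its start site (GRCh38.p14, chr1:11060019-11060268, minus strand, from RefSeq) read, with the E-box CACGTG in capitals:
SRM: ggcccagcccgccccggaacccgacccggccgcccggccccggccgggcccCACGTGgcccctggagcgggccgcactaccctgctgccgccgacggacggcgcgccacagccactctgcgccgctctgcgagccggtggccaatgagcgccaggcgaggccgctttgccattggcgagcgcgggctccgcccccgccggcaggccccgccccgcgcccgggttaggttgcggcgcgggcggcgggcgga
The match begins 199 bases before the start site. CACGTG reads the same on both strands. In all, 11 such windows for 8 of the members were searched. AZIN1 was left out of the search, and no window was found for SMOX. The AMD1 windows starting at 110874534 and 110874535 on chromosome 6 are almost the same stretch. Of the 11 windows 2 held CACGTG, that of SRM and a window of ODC1, in which the match begins 29 bases before a start site. Its 30 bases around the E-box (chr2:10448024-10448053, minus strand) are set here beside those of SRM (chr1:11060200-11060229, minus strand), as the 2 windows that held it:
SRM E-box: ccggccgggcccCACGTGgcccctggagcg
ODC1 E-box: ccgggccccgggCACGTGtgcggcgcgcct
Over 35116 windows of 250 bases before a start site, 6.34% held CACGTG. A match in a sequence is a description and not a binding site, and its part in the values of either gene was not tested.

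SRM stood far lower in the cells with the NFX1-91 hairpin, while the group means of SMS and ODC1 differed by 1.05-fold and neither passed the test. A scaled signal is a share of the array's total, multiplied so that each array has a mean of 500. Signals of different probe sets cannot be set against each other, and in RNA from whole cultures, fewer cells with a transcript and less of it per cell cannot be told apart. The SRM probe set had scaled signals of 1140, 1248 and 1278 in the control arrays and 288, 303 and 356 in the NFX1-91 shRNA arrays. All 3 NFX1-91 shRNA arrays lay far below all 3 control arrays. The means were 1222 ± 72.7 and 316 ± 35.8 (SD, n = 3 per group), a ratio of 3.87. On the log2(signal + 16) scale, which all fold changes here use and which understates changes of dim probe sets, the difference was -1.90 (SE 0.084). Ordered from the largest fall, SRM was number 16 of the 22215 probe sets.

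SMS, the next enzyme after SRM, had signals of 2654, 2739 and 2702 in control arrays and 2866, 2844 and 2779 in NFX1-91 shRNA arrays. Its groups did not overlap, but the log2 fold change of 0.07 (SE 0.034, limma adjusted p = 0.197) did not pass the threshold of 0.05. Its interval at the 95% level ran from -0.01 to 0.15. Within each array, SRM relative to SMS, on the log2 scale and set to 0 at the control mean, was -2.11, -2.03 and -1.77 in the NFX1-91 shRNA arrays against -0.07, 0.01 and 0.06 in the controls.

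ODC1, the first enzyme of the pathway and a very bright probe set (percentile 98.9 of brightness), read 7125, 6665 and 6327 in control arrays and 7002, 7045 and 6984 in NFX1-91 shRNA arrays. The groups overlapped, since control replicate 1 was the highest of all 6. Its log2 fold change was 0.07 (SE 0.042, limma adjusted p = 0.322), with a 95% interval from -0.03 to 0.16. Without control replicate 1 it was 0.11 (adjusted p = 0.0348).

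AMD1 was read by 2 probe sets that pointed in opposite directions, and neither passed. The brighter (201197_at) read 1265, 1277 and 1288 in control arrays and 1171, 1202 and 1170 in NFX1-91 shRNA arrays, with a log2 fold change of -0.11 (SE 0.041, limma adjusted p = 0.0817). The other (201196_s_at) read 766, 913 and 908 against 928, 1011 and 942, and differed by 0.16 on the log2 scale (SE 0.075, adjusted p = 0.175). In both the groups did not overlap, so the direction for AMD1 depends on the probe set. Within an array the difference between these probe sets was 0.23, 0.32 and 0.26 in the NFX1-91 shRNA arrays and -0.15, 0.08 and 0.06 in the controls, relative to the control mean. This difference was not tested.

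**Figure D1:**
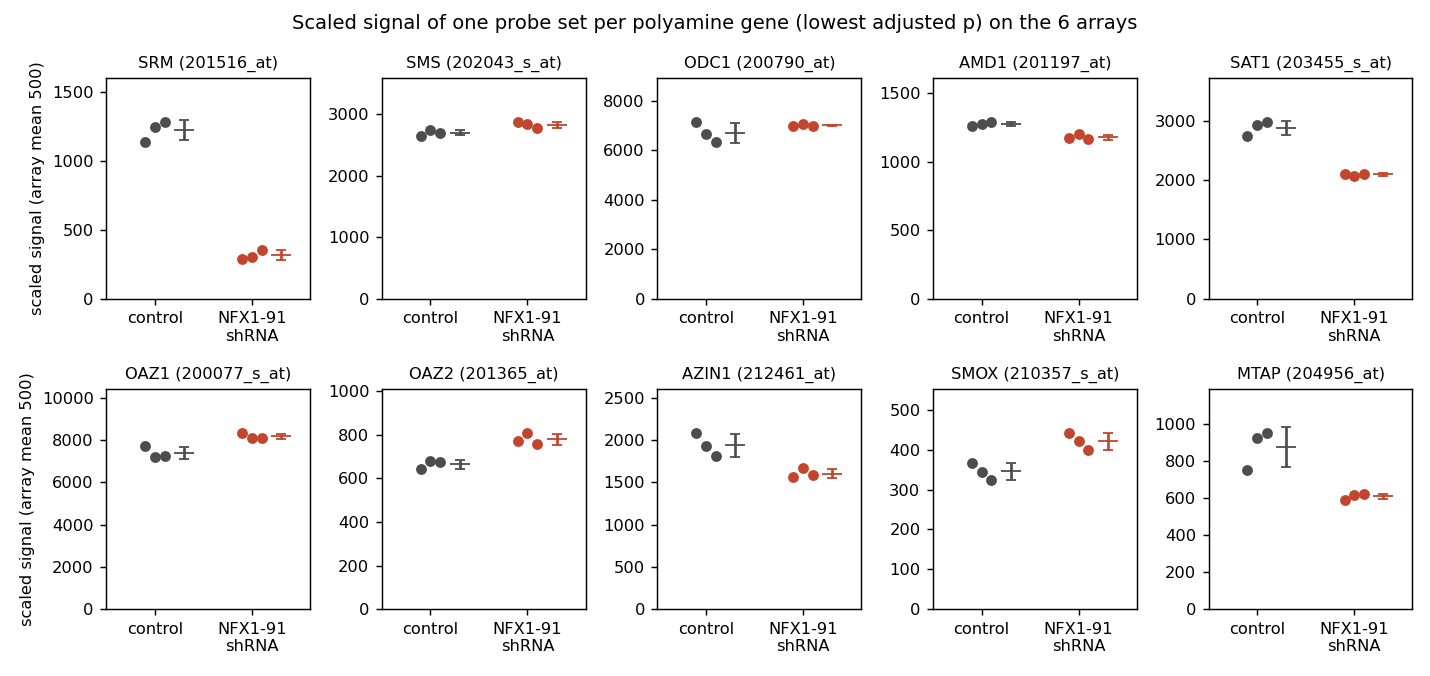
Scaled signal (linear axis from 0, array mean 500) of the probe set with the lowest adjusted p for each of the 10 genes; points are single arrays, and the bar beside them is the mean with its SD (n = 3 per group). SRM stands out, with 288 to 356 in NFX1-91 shRNA arrays against 1140 to 1278 in control arrays, and SAT1, AZIN1 and MTAP were lower by smaller amounts.

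The breakdown enzymes went opposite ways, SAT1 lower and SMOX higher. All 3 SAT1 probe sets fell. The one with the smallest spread (203455_s_at) read 2755, 2938 and 2975 in control arrays and 2111, 2075 and 2109 in NFX1-91 shRNA arrays, a log2 difference of -0.46 (SE 0.040, limma adjusted p = 8.13e-05). A further SAT1 probe set (213988_s_at) fell from 1753 ± 212 to 1224 ± 38.5, or by 0.51 on the log2 scale (adjusted p = 0.00188). The brightest (210592_s_at) fell from 3074 ± 241 to 2393 ± 118, or by 0.36 on the log2 scale (adjusted p = 0.00252). Control and NFX1-91 shRNA arrays did not overlap in any of these 3, and the calls held in every alternative that was run. They read the same gene and are not independent of each other. A dim probe set annotated to both SAT1 and ZSWIM8, and so no member, did not pass (log2 fold change 0.45, adjusted p = 0.2).

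SMOX, spermine oxidase, read 367, 345 and 325 in control arrays and 441, 421 and 399 in NFX1-91 shRNA arrays by its brighter probe set (210357_s_at). Every NFX1-91 shRNA array was above every control array, and the log2 fold change was 0.27 (SE 0.072, limma adjusted p = 0.0229). That call was lost without control replicate 2 (adjusted p = 0.0765) or 3 (0.0794) and without NFX1-91 shRNA replicate 1 (0.0767) or 2 (0.0897). The dim SMOX probe set (217074_at), below the median of brightness, had overlapping groups of 30.2 to 40.6 and 37.8 to 54.1, and its log2 fold change of 0.28 did not pass (adjusted p = 0.232). SMOX relative to SAT1 within each array, at the brighter probe sets and set to 0 at the control mean, was 0.62, 0.68 and 0.58 in NFX1-91 shRNA arrays and 0.14, 0.07 and -0.21 in controls.

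MTAP, which recycles the by-product of SRM and SMS, was lower by its brightest probe set (204956_at). It read 752, 927 and 952 in control arrays and 592, 616 and 622 in NFX1-91 shRNA arrays, a log2 fold change of -0.51 (SE 0.087, limma adjusted p = 0.00273). Another 2 MTAP probe sets of middle brightness did not pass, and in both control replicate 1 lay near the NFX1-91 shRNA arrays. One of them (216685_s_at) read 559, 749 and 848 against 578, 578 and 538, and differed by -0.32 on the log2 scale (adjusted p = 0.113). The other (211363_s_at) read 394, 566 and 638 against 437, 472 and 459, and differed by -0.19 (adjusted p = 0.424). Without control replicate 1 both fell, by 0.49 (adjusted p = 0.00141) and by 0.39 (adjusted p = 0.00467). The 2 dimmest MTAP probe sets (211364_at and 217134_at) had means between 16.6 and 43.8, overlapping groups and no call (adjusted p = 0.821 and 0.731).

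Among the regulators, both antizymes were higher and the antizyme inhibitor was lower by 1 of its 3 probe sets. The OAZ1 probe set 200077_s_at read 7718, 7215 and 7266 in control arrays and 8328, 8100 and 8122 in NFX1-91 shRNA arrays, a log2 fold change of 0.15 (SE 0.034, limma adjusted p = 0.0121). The other OAZ1 probe set (215952_s_at) read 7092, 7071 and 7067 against 7639, 7533 and 7442, a log2 difference of 0.09 (SE 0.026, adjusted p = 0.0328). The arrays of the groups did not overlap in either, and the ratios of the means were small, 1.11 and 1.07.

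OAZ2 rose by both of its probe sets. For 201364_s_at the signals were 700, 866 and 811 in control arrays and 1078, 1040 and 909 in NFX1-91 shRNA arrays, a log2 fold change of 0.34 (SE 0.090, limma adjusted p = 0.0214). For 201365_at they were 640, 680 and 672 against 771, 806 and 756, a log2 difference of 0.22 (SE 0.053, adjusted p = 0.0141). In both, the lowest NFX1-91 shRNA array lay above the highest control array.

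The antizyme calls were sensitive to single arrays. For OAZ1 200077_s_at the adjusted p was 0.0596 without control replicate 2 and 0.0534 without NFX1-91 shRNA replicate 1. For OAZ1 215952_s_at it passed only without control replicate 1 among the leave-outs, and ran from 0.0545 to 0.102 without any other single array. It was 0.11 after quantile normalization, where the log2 fold change was 0.06, and 0.0522 with the replicate number as a block. OAZ2 201364_s_at was lost without control replicate 3 (0.0512) and without NFX1-91 shRNA replicates 1 (0.0888) or 2 (0.0965), and OAZ2 201365_at without NFX1-91 shRNA replicate 2 (0.0798). With no variance trend all 4 antizyme calls were lost, with adjusted p-values from 0.0548 to 0.336. None of these values changed sign in any alternative.

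AZIN1 fell by probe set 212461_at, which read 2081, 1929 and 1809 in control arrays and 1564, 1665 and 1583 in NFX1-91 shRNA arrays. The groups were apart, and the log2 fold change was -0.27 (SE 0.056, limma adjusted p = 0.00755). A further probe set, 201772_at, read 1654, 1963 and 1920 against 1685, 1784 and 1708. Its control replicate 1 was the lowest of all 6 arrays, and its log2 fold change of -0.09 (SE 0.065) did not pass (adjusted p = 0.371). Without that array it was -0.17 (adjusted p = 0.0186). The remaining AZIN1 probe set, 213747_at, had overlapping groups of 92.6 to 124 and 116 to 128 (log2 fold change 0.13, adjusted p = 0.515). Within each array, OAZ1 (200077_s_at) relative to AZIN1 (201772_at), set to 0 at the control mean, was 0.30, 0.18 and 0.24 in NFX1-91 shRNA arrays. In controls it was 0.21, -0.13 and -0.09, so the groups overlapped for this pair.

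**Figure D2:**
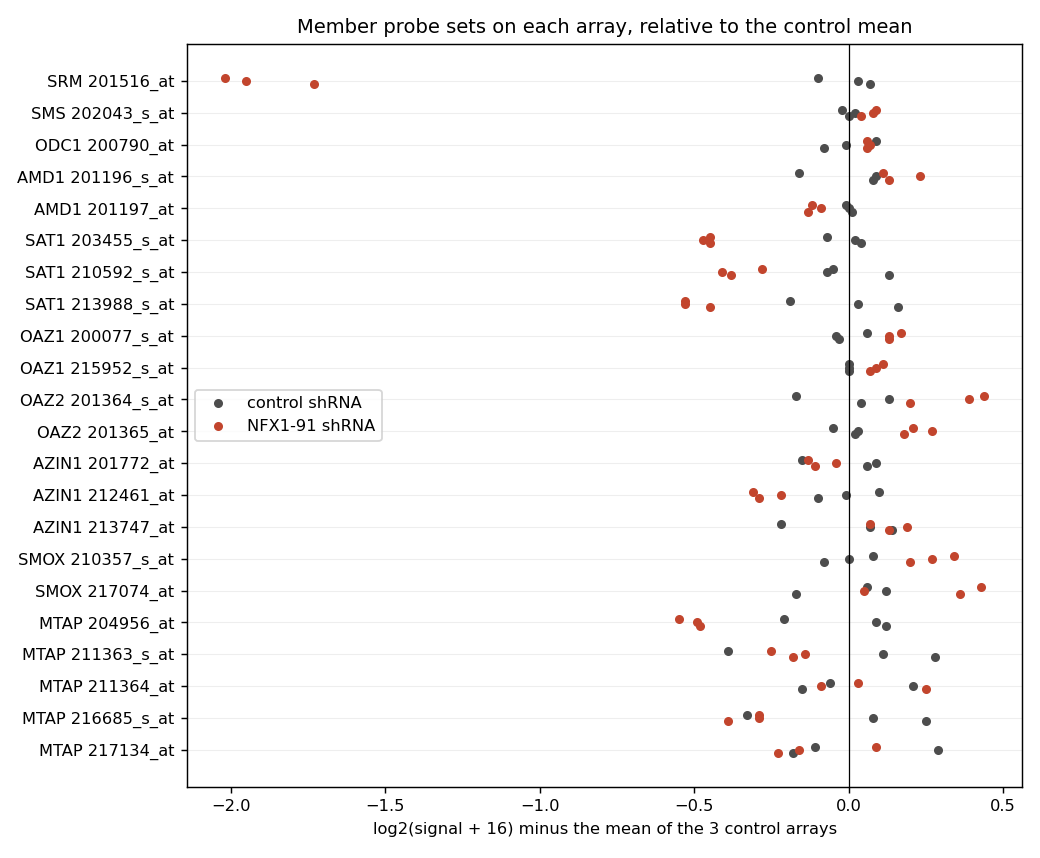
All 22 probe sets of the 10 genes, each array's log2(signal + 16) minus the mean of the 3 control arrays on the x axis; grey points are control arrays and red points NFX1-91 shRNA arrays. SRM lies between -2.02 and -1.73 in NFX1-91 shRNA arrays, and every other member lies within -0.55 and 0.44 on all arrays.

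With SRM left out, since the pathway was chosen from it, 10 of the other 21 probe sets were called. Of these, 5 were lower (3 of SAT1, and 1 each of AZIN1 and MTAP) and 5 higher (2 each of OAZ1 and OAZ2, and SMOX). Over all probe sets limma called 25.7%, with 13.7% lower and 12.0% higher at an adjusted p under 0.05. Since brighter probe sets were called more often, the share among those above the median of brightness was 44.5%. Of the 21, 18 were that bright, among them all 10 that were called. The groups did not overlap for 13 of the 21, against 39.0% of all probe sets. None of these 13 was below the median of brightness, whereas the 39.0% covers bright and dim probe sets together. The median log2 fold change of the 21 was 0.06 and that of all probe sets 0.01. These 21 probe sets ran from -0.51 to 0.34. Of the 22, only SRM differed by 2-fold or more. Of all probe sets, 1.10% had an adjusted p under 0.05 and were lower by 2-fold or more. Nothing is read from these shares, since the pathway was chosen with the comparison known.

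**Figure D3:**
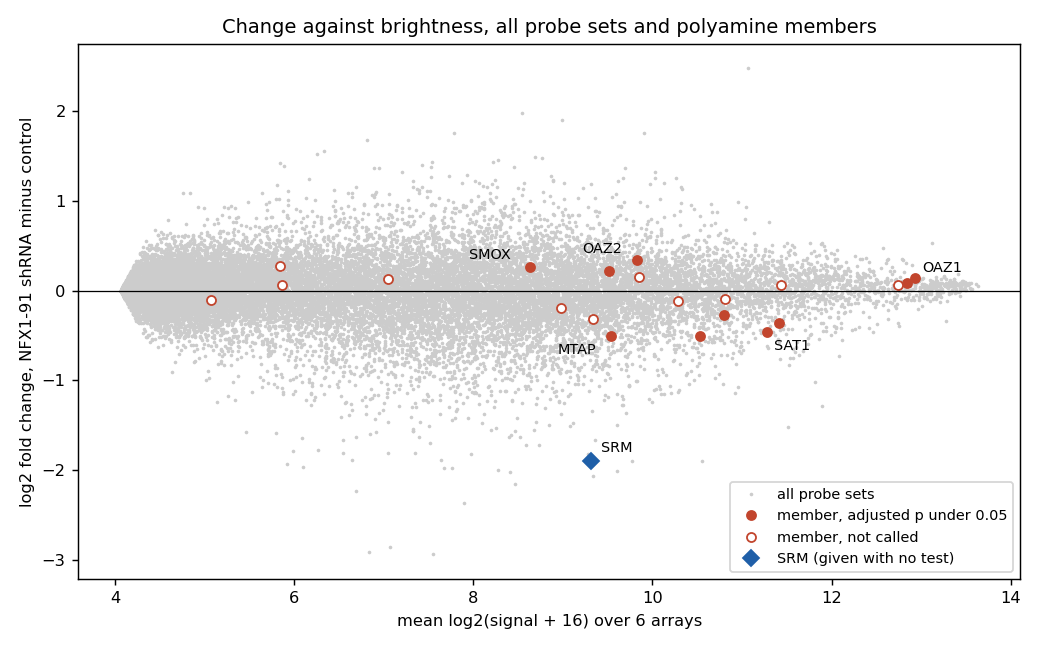
Log2 fold change (NFX1-91 shRNA minus control) against mean log2(signal + 16) over the 6 arrays, with all 22215 probe sets in grey. Filled red points are members with an adjusted p under 0.05, open ones are members not called, and the blue diamond is SRM, at -1.90, far from the other members.

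Control replicate 1 touched several of these results. It was the lowest of the 3 control arrays in 13 of the 22 member probe sets, whereas over all probe sets it was the lowest in 35.7%. Without it 6 member probe sets were higher and 9 lower, SRM among them. The added ones were those of ODC1, AZIN1 and MTAP given above. The labels name no batch, and the part of this array in the results was not tested.

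The steps around the core pathway were described from 5 further lists, with 31 of 38 genes measured by 48 probe sets. Of these probe sets 10 were higher, 7 lower and 31 not called, with a median log2 fold change of 0.00. For comparison, limma called 25.7% of all probe sets and 44.5% of those above the median of brightness, as 35 of these 48 were. The counts by list below are descriptions beside those shares, and nothing is read from them about a list.

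Ornithine and arginine supply had 4 of 9 probe sets higher and 1 lower, against 12.0% and 13.7% of all probe sets. PYCR1, which makes proline from the same precursor as ornithine, fell from 1586 ± 58.6 to 1122 ± 92.8 (log2 fold change -0.50, limma adjusted p = 0.000592). OAT, the mitochondrial ornithine aminotransferase, rose from 3539 ± 121 to 4288 ± 73 (0.28, adjusted p = 0.000657). ARG2, an arginase that yields ornithine, read 154, 131 and 158 in control arrays and 240, 252 and 321 in NFX1-91 shRNA arrays by probe set 203946_s_at. Those groups were well apart (log2 fold change 0.81, adjusted p = 0.00146). Its other probe set, 203945_at, had a log2 fold change of 0.13 with overlapping groups (adjusted p = 0.405). The remaining rises, named after their values were seen, were those of the arginine-making enzymes ASL (0.40, adjusted p = 0.00725) and ASS1 (0.30, adjusted p = 0.0163). The call for ASS1 was lost without control replicate 2 (0.28, adjusted p = 0.0696).

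The enzyme that uses spermidine to modify the translation factor eIF5A was lower. In its list 1 of 10 probe sets was higher and 3 lower, against 12.0% and 13.7% of all. DHPS, deoxyhypusine synthase, takes the aminobutyl part of spermidine, the product of SRM. Its probe set 202802_at read 613, 622 and 580 in control arrays and 331, 359 and 423 in NFX1-91 shRNA arrays, and every control array lay above every NFX1-91 shRNA array. All 3 DHPS probe sets fell, with log2 fold changes of -0.69, -0.46 and -0.50 (limma adjusted p = 0.000601, 0.000599 and 0.00121). DOHH, which completes the modification, had 3 probe sets and no call, the brightest at -0.09 (adjusted p = 0.603). The 3 EIF5A probe sets, at percentiles 98.6 to 99.2 of brightness, had log2 fold changes from 0.01 to 0.07 and no call. EIF5A2, the less widely expressed form of eIF5A, rose from 144 ± 15.6 to 245 ± 13 (0.71, adjusted p = 0.000825).

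In the methionine cycle and salvage list, 3 of 13 probe sets were higher and 2 lower, against 12.0% and 13.7% of all. AHCY, which clears S-adenosylhomocysteine, fell from 2785 ± 8.6 to 2052 ± 102 (log2 fold change -0.44, limma adjusted p = 0.000145). MAT2B, the regulatory subunit of methionine adenosyltransferase, fell from 1756 ± 83.7 to 1466 ± 12.8 (-0.26, adjusted p = 0.00343). ENOPH1, a salvage enzyme downstream of MTAP, rose from 1582 ± 39.7 to 1931 ± 42.6 (0.29, adjusted p = 0.001). The other rises, named after their values were seen, were those of the salvage enzyme APIP (0.26, adjusted p = 0.0272) and methionine synthase MTR (0.41, adjusted p = 0.01). APIP was lost without any single array except NFX1-91 shRNA replicate 1, with adjusted p-values from 0.0557 to 0.0749, and MTR without NFX1-91 shRNA replicate 2 (0.39, adjusted p = 0.0567). Without control replicate 1, 2 probe sets not called otherwise were lower, one of MAT2A (200769_s_at, -0.40, adjusted p = 0.0146) and one of AHCYL1 (200848_at, -0.38, adjusted p = 0.000557).

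Among transport genes 2 of 10 probe sets were higher and 1 lower, against 12.0% and 13.7% of all. SLC3A2, the heavy chain of amino acid transporters that has also been linked to polyamine export, read 1967, 2160 and 1921 in control arrays and 1050, 1062 and 1016 in NFX1-91 shRNA arrays. The NFX1-91 shRNA arrays lay far below the controls (log2 fold change -0.94, limma adjusted p = 1.02e-05). CAV1, a caveolar protein, rose by both of its probe sets (0.33 and 0.44, adjusted p = 7.3e-05 and 0.00125). The lysosomal exporter ATP13A2 and its relative ATP13A3 had log2 fold changes of 0.16, -0.03 and 0.33 over 3 probe sets, and none passed. Of the remaining polyamine enzymes and regulators, PAOX, OAZ3 and AGMAT, all 6 probe sets lay below the median of brightness and none passed. The 2 OAZ3 probe sets pointed opposite ways, at 0.37 and -0.36.

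**Figure D4:**
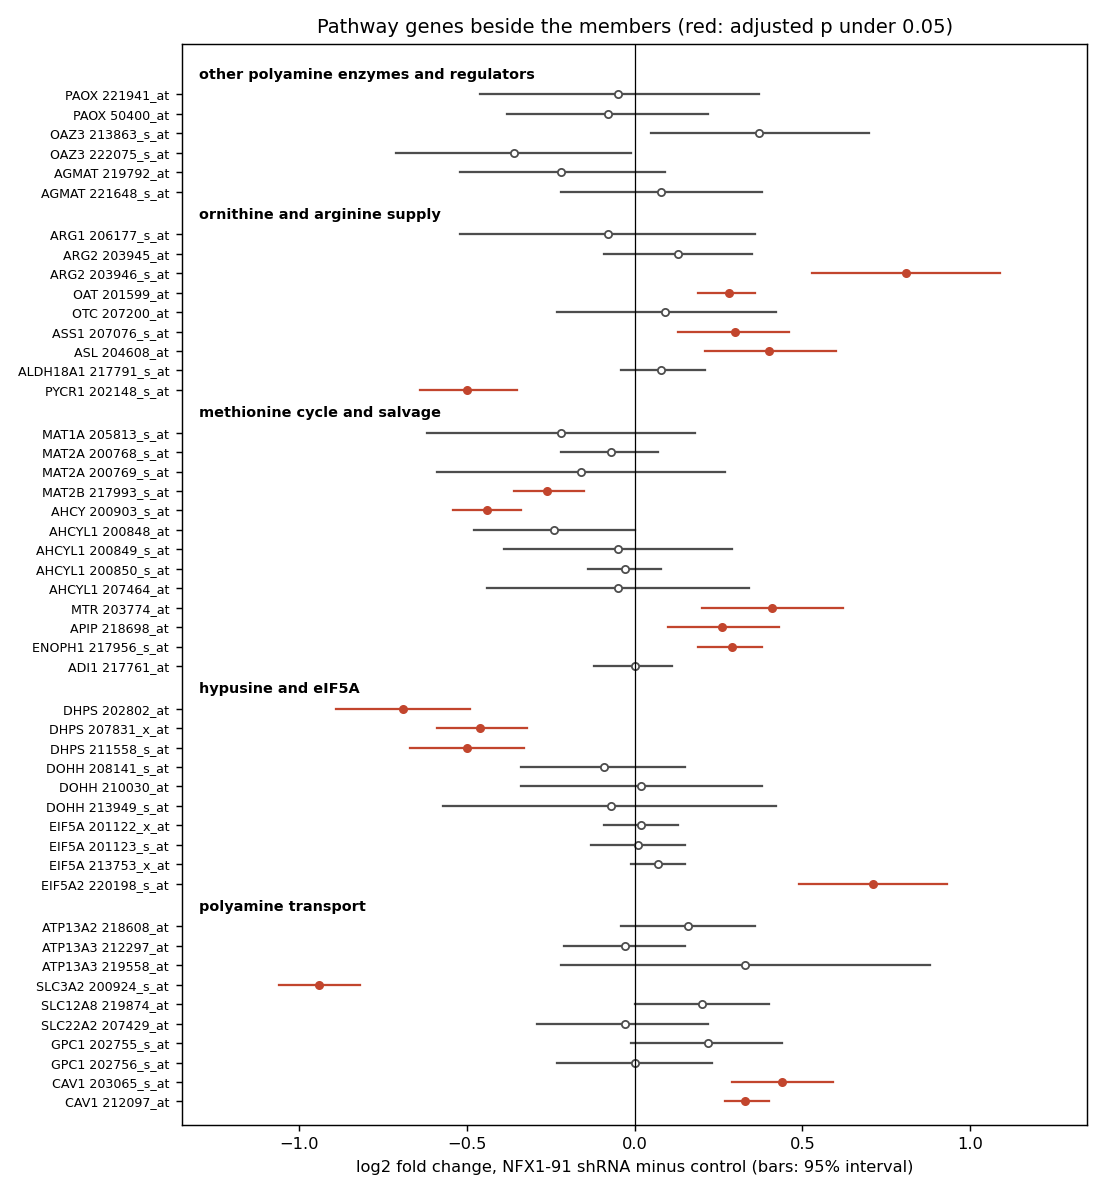
Log2 fold change (NFX1-91 shRNA minus control, x axis) of the 48 probe sets of 5 lists around the pathway, with 95% intervals from the limma fit; red points passed an adjusted p of 0.05 and open points did not. The 3 DHPS probe sets and SLC3A2 lie clearly below 0, and EIF5A2, both CAV1 probe sets and 1 of the 2 of ARG2 above it.

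By the likeness of their profiles over the 6 arrays, the 5 probe sets nearest to SRM were those of UBAP2L, COQ6, SLC7A5, TAGLN and GALNT12. Likeness was the Euclidean distance between the 6 log2 values, each taken relative to its own control mean, and these distances ran from 0.109 to 0.264. Their log2 fold changes lay between -1.94 and -1.82, next to the -1.90 of SRM. For the dimmer of them the offset sets part of this match, since the ratio of mean signals was 6.77 for TAGLN and 4.88 for COQ6, against 3.87 for SRM. SLC7A5, which pairs with SLC3A2 as an amino acid transporter, read 2978, 2939 and 2798 in control arrays and 738, 776 and 778 in NFX1-91 shRNA arrays. The UBAP2L probe set, the nearest, read 347, 378 and 385 against 85.4, 82.4 and 96.4. These genes were picked for their likeness, and no test applies.

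As a check of the labels, NFX1 was read by 3 probe sets, which may detect several of its splice forms. The dimmest (210268_at) read 16.8, 17.7 and 24.4 in control arrays and 8.87, 8.83 and 4.56 in NFX1-91 shRNA arrays. That was a fall of 0.60 on the log2 scale (limma adjusted p = 0.0137, exact two-sided permutation p = 0.1, the smallest that 3 against 3 arrays allow). At signals this close to the offset of 16 the size depends on it, and it was -1.32 with an offset of 1 and -0.23 with an offset of 64. The brighter ones had log2 fold changes of -0.13 and -0.06 (adjusted p = 0.4 and 0.775, exact permutation p = 0.2 and 0.5). Of the epithelial markers of the labelled cell type, EPCAM, KRT8, KRT18 and KRT19 lay at percentile 97.7 of brightness or above, while the intestinal factors CDX1 and CDX2 lay below the median. Of the 8 epithelial probe sets 2 were higher (KRT8 and KRT18) and 2 lower (EPCAM and CDH1). Their summed signal was 23342 to 24175 in control arrays and 28015 to 28195 in NFX1-91 shRNA arrays. That rise lay mostly in the means of KRT18 (7403 to 10739) and KRT8 (5556 to 7065). The means of EPCAM (4350 to 3918) and of CDH1 201131_s_at (647 to 452) fell. Markers of fibroblasts, blood and endothelium summed over 21 probe sets to 458 to 537 and 539 to 609. Of these, 1 probe set of COL1A1 was higher (log2 fold change 0.68, adjusted p = 0.00236). PTPRC, the pan-leukocyte marker, read at most 18.9 on any array. Other probe sets of the list read higher, with CD3E at 34 to 57.8 and COL1A1 217430_x_at at 168 to 215, and neither was called. The part of these markers in the results was not tested.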

How the data were processed

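Biotin-labelled cRNA from total RNA was hybridised to Affymetrix arrays, per the labels' protocols. The deposited values are linear intensity shares for 22215 probe sets, and an array's shares add up to 1. The authors' probe summary and background correction are not given in the sources at hand. The labels gave each array's group and replicate number. Each array was scaled to a mean of 500, log2(signal + 16) was taken, and all probe sets were compared between groups with limma 3.58.1, run under R 4.3.3 with a trended variance and no pairing, two-sided, with Benjamini-Hochberg adjustment and a threshold of 0.05. Figures used Python 3.11.15 and matplotlib 3.10.9. Of these steps, only the limma fit was also run on simulated data, with known changes added to independent normal noise.

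Probe sets were named from the platform annotation given with the series, in which 19064 had 1 gene symbol, 1043 several and 2108 none. All 22 member probe sets matched a RefSeq gene by identifier and 0 symbols changed. The members and lists were chosen with earlier results of these data known. All member probe sets were named, and of each further list up to 3 called genes with the smallest adjusted p. Further genes of these lists, called or not, were also named outside that rule. On each array 397 to 451 values repeated 1 low value, and 24.1% to 25.9% lay below the offset. Pearson correlation between arrays was 0.992 to 0.995 within groups and 0.983 to 0.985 between them. Alternatives were quantile normalization, median centring, offsets of 1 and 64, dim probe sets left out, no variance trend, a replicate block, the brightest probe set per gene, a threshold of 0.01, and each array left out.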

Additional observations from a re-analysis of the deposited data

How the results depend on the processing

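Over 15 alternatives the members, SRM included, gave 317 values. Of these, 283 kept direction and side of the threshold, 27 lost a call, 4 gained a call and 0 called values reversed. The other 3, from the dimmest MTAP probe sets, changed sign without being called. The 3 SAT1 probe sets and MTAP 204956_at kept their call in every alternative that could be computed. The log2 difference of SRM, from which the pathway was chosen, ran from -1.99 to -1.76, given as a description. The count of higher members, 5, was 1 with no variance trend, 0 at a threshold of 0.01, 3 with the brightest probe set per gene, and 1 to 6 with an array left out. The count of lower members, 6 with SRM, was 3 with the brightest probe set per gene, where fewer probe sets were tested. It was 6 to 9 with an array left out, SRM among them each time. The AZIN1 call on 212461_at was lost with no variance trend (adjusted p = 0.0514). Over all probe sets, 2656 higher became 1760 with the brightest per gene and 1535 at a threshold of 0.01, and 1669 to 2761 with an array left out. The 1 NFX1 call became 0 with dim probe sets left out or the brightest per gene, which drop that probe set, and 0 at a threshold of 0.01. Of 17 called probe sets of the other lists, 14 kept their call throughout. Median centring changed the split of all calls from 2656 higher and 3047 lower to 2976 and 2696, and changed no member's call.

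Deviations from the group means had correlations of -0.0584, 0.0869 and -0.0884 between same-numbered arrays. Between differently numbered arrays they ran from -0.104 to 0.147. With 3 arrays per group this cannot show whether same-numbered arrays were prepared together, and the labels give only the number. With the replicate block 4 members were higher and 6 lower, SRM among them, and all probe sets gave 2265 higher and 2649 lower. The cause of the other changes was not tested. Dim probe sets, near the offset, cannot show small differences.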
